A study of Homo sapiens with 6 samples.

Results

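The genes described here are 10 heat shock chaperones: HSP90AA1, HSP90AB1, HSPA8, HSPA1A, HSPA1B, HSPH1, DNAJB1, HSPB1, HSPD1 and HSPE1. They were picked by name from the deposited count table, which lists 58336 genes, 57754 of them with an Ensembl identifier that could be paired with a symbol. The choice was made with earlier results of these data known. HSPA1A and HSPA1B encode the same protein and were summed, which left 9 chaperones to compare. RNA was sequenced from A2780 cells, an established ovarian cancer line, after vehicle (DMSO) or 6 µM TH588 for 48 h, with 3 biological replicates (A, B and C) per treatment. TH588 is a first-generation inhibitor of MTH1, the enzyme that clears oxidized nucleotides from the nucleotide pool, and belongs to the MTH1 inhibitors that also stall cells in mitosis. All libraries come from a single line, TH588 was given at a single dose and time, and the DMSO samples' own labels give no duration, so the values carry no time course and no second cell background.

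Chaperones bind unfolded proteins and keep them from aggregating while they fold. In the cytosol, HSP70 proteins receive clients from J-domain proteins and release them with the help of exchange factors, HSP90 takes over signalling proteins such as kinases and steroid receptors, and small heat shock proteins hold unfolded clients without using ATP. HSPD1 and HSPE1 form the chaperonin of the mitochondrial matrix, so the word cytosolic does not cover them, although their genes belong to the same heat shock regulon. Heat shock factor HSF1 drives the stress-induced members by binding heat shock elements, which are inverted repeats of the unit GAA. Many tumours carry high levels of these proteins, and HSP90 has long been pursued as a drug target.

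The heat shock elements of the 10 genes are shown because they are what the members' promoters are known for. The members also differ in the number of exact units that the search below found. Units with any other letter or spacing were not counted, so a gene may hold more units than are given. The 250 bases before each RefSeq start site (GRCh38.p14) were searched for 2 adjoining units, GAANNTTC or TTCNNGAA, and for 3, GAANNTTCNNGAA or TTCNNGAANNTTC, where N is any base. The 2-unit forms read the same on both strands, both 3-unit forms are each other's reverse complement, and every 3-unit match contains 2-unit matches. All 10 genes had a window, 16 windows in all. Each line below gives 30 bases, 5′ to 3′ on the strand of the gene, with the matching units in capitals.
HSP90AA1, chr14:102087112-102087141, minus strand: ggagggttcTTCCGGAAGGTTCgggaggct
HSP90AB1, chr6:44247822-44247851, plus strand: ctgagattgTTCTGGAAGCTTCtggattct
HSPA8, chr11:123062171-123062200, minus strand: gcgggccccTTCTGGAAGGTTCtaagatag
HSPD1, chr2:197500060-197500089, minus strand: cattTTCTGGAAAGTTCTGGAAccgagcga
HSPA1A, chr6:31815426-31815455, plus strand: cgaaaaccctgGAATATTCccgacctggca
HSPA1B, chr6:31827622-31827651, plus strand: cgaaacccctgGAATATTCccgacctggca
HSPB1, chr7:76302480-76302509, plus strand: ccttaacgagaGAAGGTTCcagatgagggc
DNAJB1, chr19:14518426-14518455, minus strand: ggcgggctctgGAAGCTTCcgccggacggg

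A 3-unit match stood in 4 of the 10 genes, HSP90AA1, HSP90AB1, HSPA8 and HSPD1, against 152 of the 27305 genes with a RefSeq window (0.557%). A 2-unit match stood in 8 of the 10 genes, against 3813 of those 27305 (13.96%). By window, 4 of the 16 held a 3-unit match and 8 a 2-unit match, against 0.4414% and 11.58% of all 35116 windows. The windows of HSPH1 and HSPE1 held neither, which says only that these letters are not in the windows searched. Each distance below is counted from 1 RefSeq start. That start is the only one of HSPA8, number 2 of 2 in HSP90AA1 and HSPD1, and number 3 of 3 in HSP90AB1. The windows of the other starts of HSP90AA1, HSPD1 and HSP90AB1 held neither form. HSP90AA1 held a single 3-unit match, which began 88 bases before that start. The other 3 genes held more: they began at 230 and 55 bases in HSPA8, at 165 and 112 in HSP90AB1 and at 245 and 240 in HSPD1, where they overlap. For HSPA8 and HSP90AB1 the stretch shown is the match nearer to the start, and for HSPD1 it holds both. DNAJB1 held 2-unit matches at 77 and 47 bases before start number 2 of 3, and the nearer is shown. The windows of the other DNAJB1 starts held neither form. The stretches of HSPA1A and HSPA1B carried the identical 2-unit match, GAATATTC, at 106 and 105 bases before their starts. The HSPD1 stretch lies between the HSPD1 start at 197499840 and the diverging HSPE1 start at 197500379, and outside the window of HSPE1. It lies past the other HSPD1 start, at 197500274, and all 30 of its bases fall in exons of the HSPD1 gene model. The stretches of HSP90AA1 and HSPA8 likewise fall wholly in exons of their own gene models, and that of HSP90AB1 does not. The HSP90AA1 stretch also lies past the other start of that gene, at 102139749. The HSP90AB1 stretch lies past its other starts, at 44246194 and 44247101. A match is a description of the sequence and not a bound site.

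The libraries held 28537837 to 99074175 gene counts. TH588 A was the shallowest and the only one in which the small nucleolar RNA SNORD3A took 21.9% of all counts, against 7.68% to 13.0% in the other 5. Without TH588 A the same 8 chaperone calls were made and the median chaperone change moved from -0.87 to -0.82, with the 7 lower chaperones between -1.24 and -0.34, HSPB1 at 0.85 and the summed HSPA1A and HSPA1B at 0.42 (not called). Levels are given as CPM, counts relative to the library's total after TMM scaling, and a floor of 3 counts corresponds to 0.0276 to 0.112 CPM. A gene was called changed when edgeR's quasi-likelihood test gave an adjusted p (Benjamini-Hochberg over 15843 genes tested) under 0.05. The response of this line to TH588 was broad: 49.6% of all genes tested were called, 24.3% higher and 25.4% lower, and over all tested genes the fold changes had a median of 0.02 on the log2 scale. The epithelial markers of the fixed list were low in all libraries (summed 3.82 to 4.60 CPM with DMSO against 10.9 to 12.2 CPM after TH588). PAX8, KRT19, CDH1, WT1, KRT8 and MUC16 were at or near 0 CPM. KRT18 went from at most 3.86 CPM to at least 6.13 CPM, and EPCAM from at most 0.886 CPM to at least 4.33 CPM. Of the mesenchymal markers, VIM stood at 3329 to 4048 CPM. CDH2 stood at 13.5 to 14.9 CPM with DMSO and 10.4 to 12.4 CPM after TH588. Of the markers of other cells, those of blood and endothelium reached at most 1.2 CPM and those of fibroblasts were uneven, with COL1A1 at 2.58 to 4.94 CPM, DCN at 6.09 to 7.01 CPM and COL3A1 at 1572 to 2600 CPM. The part of these markers in the chaperone values was not tested. In bulk RNA, less RNA per cell and fewer cells with the RNA cannot be told apart.

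Most of the abundant chaperones fell after TH588. Of the 9 chaperones, 7 were called lower (HSP90AA1, HSP90AB1, HSPA8, HSPH1, DNAJB1, HSPD1 and HSPE1), HSPB1 was called higher, and the summed HSPA1A and HSPA1B were not called. For comparison, 25.4% of all genes tested were called lower. The same 7 did not overlap between the groups, with every TH588 library below every DMSO library, a pattern shown by 29.0% of all genes tested, while 57.7% did not overlap in either direction. The median change of the 9 was -0.87 on the log2 scale. All 9 passed the filter on low counts. Between 2.63% and 11.6% of all genes tested had a lower fold change than the 6 largest falls, HSPD1, HSPE1, HSP90AA1, HSPA8, HSPH1 and HSP90AB1. The place of HSPE1 among them turned with single libraries, since without DMSO B it was -1.13 against -1.17 for HSP90AA1 (without TH588 B, -1.13 against -1.15).

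**Figure D1:**
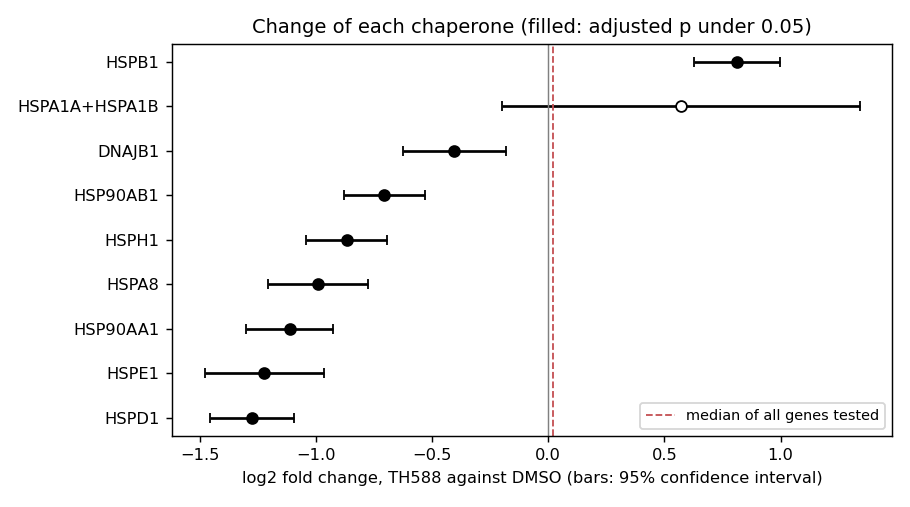
Log2 fold change (x axis) of each of the 9 chaperones (y axis), TH588 against DMSO, from edgeR over 3 libraries per group, with bars for the 95% confidence interval. The 7 lower chaperones lie between -1.27 and -0.41, HSPB1 lies at 0.81, and the open point of HSPA1A+HSPA1B has an interval from -0.20 to 1.34 that includes 0.

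Together the 10 genes took a large share of the transcriptome, and that share fell. Their summed level was 23782, 22535 and 24324 CPM with DMSO with 12533, 12648 and 11919.8 CPM after TH588 (mean 23547 ± 917 and 12367 ± 392, SD, n = 3). The groups did not overlap, and the sum with TH588 was 0.525 times that with DMSO. An exact permutation test gave p = 0.1, the smallest value that 3 against 3 libraries allow. HSP90AB1, HSPA8, HSP90AA1 and HSPD1 made up 94.3% to 97.2% of the sum in each library. Those 4 ranked 8, 9, 18 and 21 in mean log2 CPM among all genes tested.

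Among the HSP90 genes, HSP90AA1 (ENSG00000080824, chromosome 14:102080738-102139699, GRCh38) encodes the stress-inducible cytosolic form and HSP90AB1 (ENSG00000096384, chromosome 6:44246166-44253888) the constitutive form. HSP90AA1 stood at 4604, 4101 and 4664 CPM with DMSO against 2026, 2160 and 1992 CPM after TH588. It fell by 1.11 on the log2 scale (SE 0.09), or 2.16-fold (edgeR adjusted p = 7.34e-07). All 3 TH588 libraries of this gene lay within a narrow band well under the lowest DMSO library. HSP90AB1 stood at 7115, 7368 and 7369.9 CPM with DMSO against 4291, 4406 and 4696 CPM after TH588. Its fall was 1.63-fold, or -0.71 (SE 0.08) on the log2 scale, with an edgeR adjusted p of 1.59e-05. Both HSP90 forms were lower in every TH588 library than in any DMSO library.

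The balance between the HSP90 forms was measured within each library, where scaling cancels. The ratio of HSP90AA1 counts to HSP90AB1 counts was 0.647, 0.557 and 0.633 with DMSO and 0.472, 0.490 and 0.424 with TH588. The groups did not overlap and the mean log2 ratio differed by -0.41, TH588 minus DMSO (exact permutation p = 0.1, two-sided, the smallest possible). Leaving out 1 library at a time gave differences from -0.47 to -0.34. Of the 50-base windows of the transcripts, 14.4% in HSP90AA1 and 16.6% in HSP90AB1 also occur in another gene, mostly processed pseudogenes, and how reads from such windows were counted is not given in the sources used here. Adding the counts of the 5 and 6 pseudogenes named after each form left the difference at -0.41.

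The HSP70 genes divided. HSPA8 (ENSG00000109971, chromosome 11:123057489-123063230) encodes the constitutive cytosolic HSP70, which folds nascent proteins and uncoats clathrin vesicles. It stood at 7287, 6619 and 7274 CPM with DMSO against 3929, 3599 and 3119 CPM after TH588. HSPA8 fell 1.99-fold, by 0.99 on the log2 scale (SE 0.10, edgeR adjusted p = 5.60e-06), and all TH588 libraries were below all DMSO libraries. HSPH1 (ENSG00000120694, chromosome 13:31134974-31162388), an HSP110 protein that exchanges the nucleotide of HSP70 and helps to dissolve aggregates, stood at 319, 299 and 314 CPM with DMSO against 162, 182 and 166 CPM after TH588. Its 1.83-fold fall was -0.87 on the log2 scale (SE 0.08, edgeR adjusted p = 2.79e-06). None of the 50-base windows of HSPH1 occurs in another gene, whereas 16.6% of those of HSPA8 do. How reads from such windows were counted is not given in the sources used here.

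The inducible HSP70 did not follow HSPA8. HSPA1A (ENSG00000204389, chromosome 6:31815464-31817946) and HSPA1B (ENSG00000204388, chromosome 6:31827735-31830255) are neighbouring copies whose shared protein is the classical marker of the heat shock response. Their summed level was 129, 111 and 273 CPM with DMSO against 309, 331 and 123 CPM after TH588 (mean 171 ± 89.0 and 255 ± 114, SD, n = 3). DMSO A and B and TH588 C were low and the other 3 libraries high, so the groups overlapped. The log2 fold change was 0.57 (SE 0.35, 95% interval -0.20 to 1.34, edgeR adjusted p = 0.202), an interval that includes both no change and a rise of more than 2-fold. The call depended on single libraries: without DMSO C the log2 fold change was 1.10 (edgeR adjusted p = 0.0127), and without TH588 C it was 0.92 (adjusted p = 0.0294).

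The share of HSPA1A in that sum varied far beyond counting error. With DMSO it was 58.1%, 48.6% and 1.79% of the summed counts in A, B and C (exact 95% intervals 57.2% to 59.1%, 47.6% to 49.6% and 1.63% to 1.96%). With TH588 it was 17.9%, 34.3% and 64.9% in A, B and C. DMSO C held 458 counts of HSPA1A and 25146 of HSPA1B, although the gene's sum was high in that library. The copies share 73.7% of the 50-base windows of HSPA1A, and the intervals cover counting error only. What set the split was not tested, and the level of either copy alone is uncertain. Taken apart, HSPA1A had a log2 fold change of 0.90 (SE 0.61, edgeR adjusted p = 0.246) and HSPA1B of 0.44 (SE 0.62, adjusted p = 0.595), and neither was called.

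**Figure D2:**
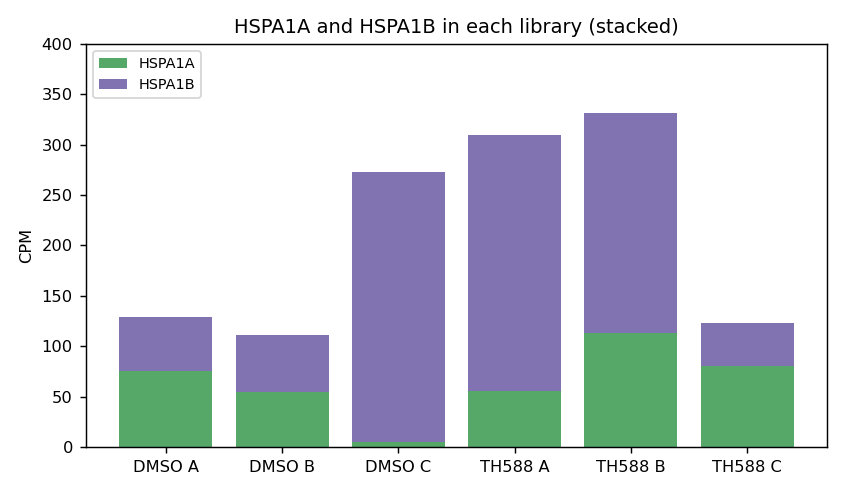
CPM (y axis, from 0) of HSPA1A and HSPA1B stacked for each of the 6 libraries (x axis). The summed bars reach 111 to 331 CPM, the TH588 C bar at 123 CPM lies among the low DMSO bars, and the HSPA1A part nearly vanishes in DMSO C at 4.89 CPM.

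Set against HSPA8 within each library, the inducible copies were higher after TH588. The ratio of the HSPA1A and HSPA1B counts to the HSPA8 counts was 0.0177, 0.0168 and 0.0376 with DMSO and 0.0787, 0.0921 and 0.0395 with TH588. The groups did not overlap, but DMSO C and TH588 C lay next to each other. The mean log2 ratio differed by 1.56, or 2.95-fold (exact permutation p = 0.1, two-sided, the smallest possible), and leaving out 1 library at a time gave 1.32 to 1.94. HSPA8, the denominator, itself fell 1.99-fold.

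DNAJB1 (ENSG00000132002, chromosome 19:14514770-14529770) encodes a cytosolic J-domain partner of HSP70, a protein that hands clients over. It stood at 73.5, 62.9 and 65.0 CPM with DMSO against 46.6, 58.1 and 47.1 CPM after TH588. This was the smallest of the falls, 1.32-fold or -0.41 on the log2 scale (SE 0.10, edgeR adjusted p = 0.00565), with TH588 B close to the lowest DMSO library. Scaled by library size only, the log2 fold change was -0.30 and the call was lost (adjusted p = 0.102). In the table's gene models 6.21% of its exon bases lie within exons of other genes, mostly TECR on the opposite strand.

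HSPB1 moved the other way. HSPB1 (ENSG00000106211, chromosome 7:76302544-76304295) encodes HSP27, a small heat shock protein that holds unfolded clients and binds actin. It stood at 67.9, 57.1 and 60.8 CPM with DMSO against 105, 113 and 108 CPM after TH588. HSPB1 rose 1.76-fold, by 0.81 on the log2 scale (SE 0.08, edgeR adjusted p = 8.01e-06), and every TH588 library was above every DMSO library. Of all genes tested, 24.3% were called higher, and 84.6% had a lower fold change than HSPB1. The 50-base windows of HSPB1 are nearly unique, with 4.22% found in another gene.

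The chaperonin genes HSPD1 and HSPE1 both fell. HSPD1 (ENSG00000144381, chromosome 2:197486581-197516737) encodes the HSP60 ring and HSPE1 (ENSG00000115541, chromosome 2:197499994-197503457) its HSP10 lid, and the genes lie head to head around a common promoter. HSPD1 stood at 4107, 3812 and 4209.6 CPM with DMSO against 1624, 1765 and 1624 CPM after TH588, a 2.42-fold fall (-1.27, SE 0.08, edgeR adjusted p = 2.42e-07). HSPE1 stood at 79.3, 105 and 92.9 CPM with DMSO against 40.0, 34.3 and 44.4 CPM after TH588, a 2.33-fold fall (-1.22, SE 0.12, edgeR adjusted p = 4.35e-06). Both genes had all TH588 libraries well below all DMSO libraries. In the table's gene models 23.9% of the exon bases of HSPE1 lie within exons of other genes. Of these bases, 281 lie in HSPD1 on the opposite strand and 192 in HSPE1-MOB4 on the same strand. Whether counting used the strand is not given in the sources used here. Of the 50-base windows, 17.0% in HSPE1 and 8.15% in HSPD1 also occur in other genes, and how reads from them were counted is not given either. The rows of the 26 pseudogenes named after HSPE1 held 0.323% to 0.982% of its counts and theirs together, a share that does not show how many such reads were left out.

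No difference was measurable in the balance of the chaperonin subunits. The ratio of HSPD1 to HSPE1 counts was 51.8, 36.4 and 45.3 with DMSO and 40.6, 51.5 and 36.5 with TH588. The groups overlapped fully, and the log2 ratio differed by -0.05 (exact permutation p = 0.8, two-sided), a difference whose sign turned when DMSO A or TH588 C was left out. With 3 libraries a group this does not show that the ratios were equal.

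**Figure D3:**
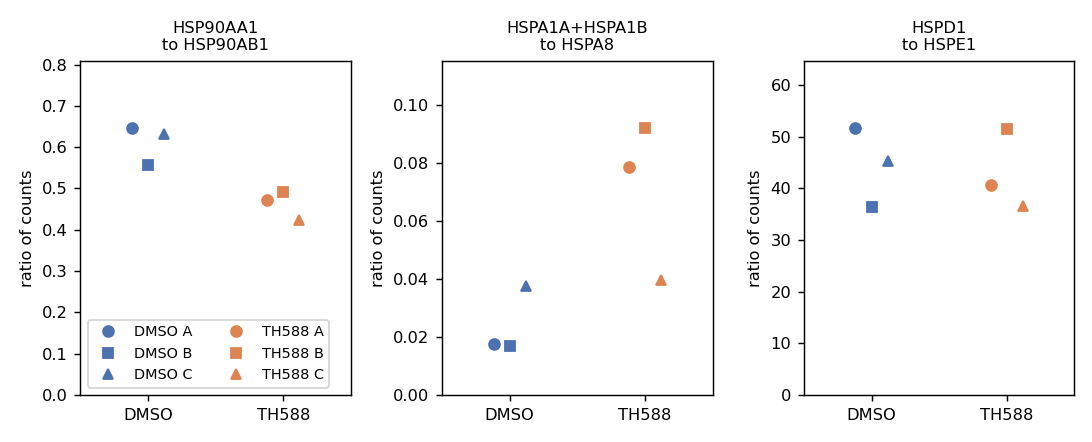
Ratio of raw counts within each library (y axes, from 0) for the 3 pairs of chaperones, with DMSO and TH588 libraries on the x axis and the replicate letter as the symbol. TH588 points lie below DMSO points for HSP90AA1 to HSP90AB1 (at most 0.490 against at least 0.557), above them for HSPA1A+HSPA1B to HSPA8, and among them for HSPD1 to HSPE1.

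The order of the members was read per length, as CPM per kb of summed exon length, since longer genes collect more counts. That length covers all exons of the gene model, used in these cells or not, so the order depends on it. For the summed HSPA1A and HSPA1B, the counts of both copies were divided by the mean of their lengths, 2502 bases, not by their sum. Their place among the less abundant members depends on that choice. Before division by length (5248 and 4245 bases), HSP90AA1 stood above HSPD1 with DMSO, at a mean of 4457 against 4043 CPM. With DMSO, HSP90AB1 led at 2444 ± 49.2 CPM per kb (SD, n = 3), followed by HSPA8 at 1456 ± 78.8, HSPD1 at 952 ± 48.6 and HSP90AA1 at 849 ± 59.0. The remaining members lay more than an order of magnitude below HSP90AB1. The summed HSPA1A and HSPA1B stood at 68.4 ± 35.6 CPM per kb, HSPE1 at 46.7 ± 6.43, HSPB1 at 37.9 ± 3.37, HSPH1 at 37.0 ± 1.24 and DNAJB1 at 18.3 ± 1.53. The libraries overlapped between neighbours from the summed HSPA1A and HSPA1B (44.4 to 109 CPM per kb) through HSPE1 and HSPB1 to HSPH1.

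With TH588 the leading 4 kept their order. HSP90AB1 stood at 1498 ± 70.0 CPM per kb (SD, n = 3), HSPA8 at 732 ± 84.0, HSPD1 at 394 ± 19.2 and HSP90AA1 at 392 ± 16.9, with the libraries of the last pair overlapping. HSPB1, at 66.5 ± 2.27 CPM per kb, moved from place 7 to place 6, behind the summed HSPA1A and HSPA1B at 102 ± 45.7, whose libraries overlapped with it, and ahead of HSPH1 at 20.3 ± 1.30 and HSPE1 at 20.02 ± 2.58, whose libraries overlapped. DNAJB1 was lowest in both groups, at 13.8 ± 1.78 CPM per kb after TH588.

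**Figure D4:**
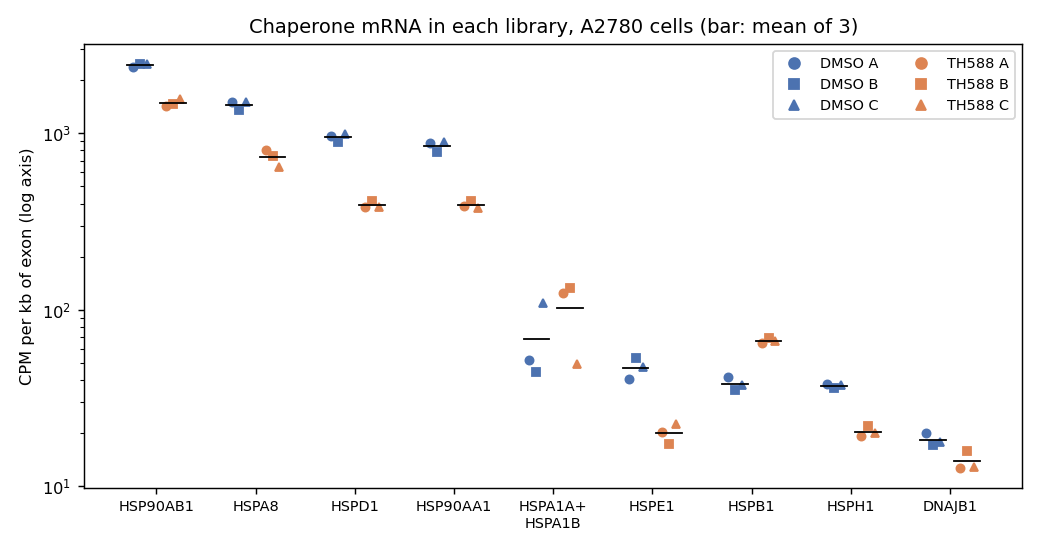
CPM per kb of exon (y axis, log scale) of the 9 chaperones (x axis) in each of the 6 libraries, with a bar for the mean of 3. HSP90AB1, HSPA8, HSPD1 and HSP90AA1 lie at 379.6 CPM per kb or more in every library, the TH588 points lie below the DMSO points for 7 chaperones and above them for HSPB1, and the points of HSPA1A+HSPA1B mix between 44.4 and 132 CPM per kb.

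The rest of the heat shock system was read from 8 lists with 77 genes in all, of which 68 passed the filter. These lists were chosen with earlier results of these data known. Their shares of calls, here and list by list below, therefore describe the chosen genes only and may reflect the choice. Of the 68, 35 were called lower (51.5%, against 25.4% of all genes tested), 9 were called higher (13.2%, against 24.3%) and 24 were not called. Among the regulators, HSF1, the factor that activates heat shock genes, stood at 64.8, 56.6 and 56.8 CPM with DMSO against 43.0, 54.2 and 45.6 CPM after TH588. Its log2 fold change was -0.32 (SE 0.10, edgeR adjusted p = 0.0192), and the call was lost when DMSO A, DMSO C, TH588 A or TH588 C was left out (adjusted p from 0.0505 to 0.117) and with scaling by library size only (adjusted p = 0.244). HSF2, which binds the same elements in development, had a log2 fold change of 0.22 (SE 0.09, edgeR adjusted p = 0.0463), and this call was lost when DMSO A, B or C or TH588 C was left out and by DESeq2 (adjusted p = 0.054). HSF4, the family member of the eye lens, rose 1.92-fold from 4.63 ± 0.843 to 8.82 ± 1.28 CPM (SD, n = 3), the HSF binding protein HSBP1 was not called, and HSF5 did not pass the filter. mRNA levels do not measure the activity of these factors.

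Most helpers of HSP90 fell. Of 16 cochaperones tested, 11 were called lower, UNC45A and CDC37L1 were called higher, and 3 were not called (median log2 fold change -0.71). Over all genes tested, 25.4% were called lower and 24.3% higher. CHORDC1, which binds the ATPase domain of HSP90, fell 2.27-fold, from 272 ± 6.67 to 119.8 ± 9.62 CPM (SD, n = 3). SUGT1, an adaptor that links HSP90 to ubiquitin ligases and the kinetochore, fell 2.00-fold, from 120.4 ± 3.96 to 60.1 ± 9.81 CPM. UNC45A, the myosin chaperone, rose from 35.0 ± 3.18 to 49.0 ± 6.90 CPM (SD, n = 3). CDC37L1 had a log2 fold change of 0.42 (edgeR adjusted p = 0.0356), a call lost when DMSO A, DMSO B, TH588 B or TH588 C was left out (adjusted p from 0.0582 to 0.148).

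Among the partners of HSP70, of 7 exchange factors and related cofactors, 5 were called lower and 2 were not called (median -0.56). HSPBP1, which exchanges the nucleotide of HSP70, fell 1.84-fold and BAG2, an inhibitor of the ubiquitin ligase that works with HSP70, fell 1.57-fold. Of the 14 J-domain genes other than DNAJB1, 6 were called lower, 1 higher and 7 were not called (median -0.15). Both lists stand beside 25.4% lower and 24.3% higher over all genes tested. DNAJC9, a histone chaperone, fell 2.49-fold, from 59.4 ± 3.30 to 23.9 ± 2.95 CPM (SD, n = 3), and DNAJC2, a chaperone of the ribosome, fell 2.17-fold. DNAJB5 was the list's rise, 3.22-fold, from 3.27 ± 0.326 to 10.6 ± 0.501 CPM.

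Of 7 other HSP70 and HSP110 genes tested, HSPA4 and HSPA14 were called lower, HSPA1L and HSPA6 higher, and 3 were not called (median 0.14). These counts lie near the shares over all genes tested, 25.4% lower and 24.3% higher. HSPA14, an HSP70 of the ribosome, fell 1.95-fold and HSPA4, a relative of HSPH1, fell 1.42-fold. HSPA6, an HSP70 that most cells make only under strong stress, stood at 0.670 ± 0.0102 CPM with DMSO against 1.03 ± 0.121 CPM after TH588 (SD, n = 3; log2 fold change 0.64, edgeR adjusted p = 0.0472), and HSPA1L at 0.691 ± 0.0310 and 1.12 ± 0.0858 CPM (0.70, edgeR adjusted p = 0.0295). Both lie outside the abundance set for naming genes and are given because the list's rises consist of them, a choice made after their values were seen. Each was called in only 1 of the 6 fits that left out a library. Of the 8 other small heat shock genes, only HSPB9 passed the filter, and it was not called, and HSPB1 was the one small heat shock gene above 1 CPM in any library.

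Beside HSPD1 and HSPE1, most of the mitochondrial list fell. Of 12 mitochondrial chaperones and proteases, 7 were called lower and 5 were not called, with none higher at the threshold (median -0.44). The shares over all genes tested were 25.4% lower and 24.3% higher. CLPP, the highest of the 12, had a log2 fold change of 0.19 and an edgeR adjusted p of 0.053. HSPA9, the mitochondrial HSP70 that pulls proteins into the matrix, fell 1.82-fold, from 2572 ± 138 to 1416 ± 61.0 CPM (SD, n = 3), and AFG3L2, a protease of the inner membrane, fell 1.64-fold.

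Of 19 heat-inducible HSF1 targets outside the 10 genes, 11 were called lower, 4 higher and 4 were not called (median -0.46). Among all genes tested, 25.4% were called lower and 24.3% higher. The list of HSF1 targets shares genes with the others, CHORDC1, HSPA6, HSPA1L and HSPA4 among them. FKBP4, an immunophilin of HSP90, fell 1.87-fold, from 247 ± 11.6 to 132 ± 16.9 CPM (SD, n = 3). Of the higher genes, IER5, a cofactor of HSF1, rose 2.02-fold from 12.2 ± 1.70 to 24.5 ± 5.50 CPM.

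**Figure D5:**
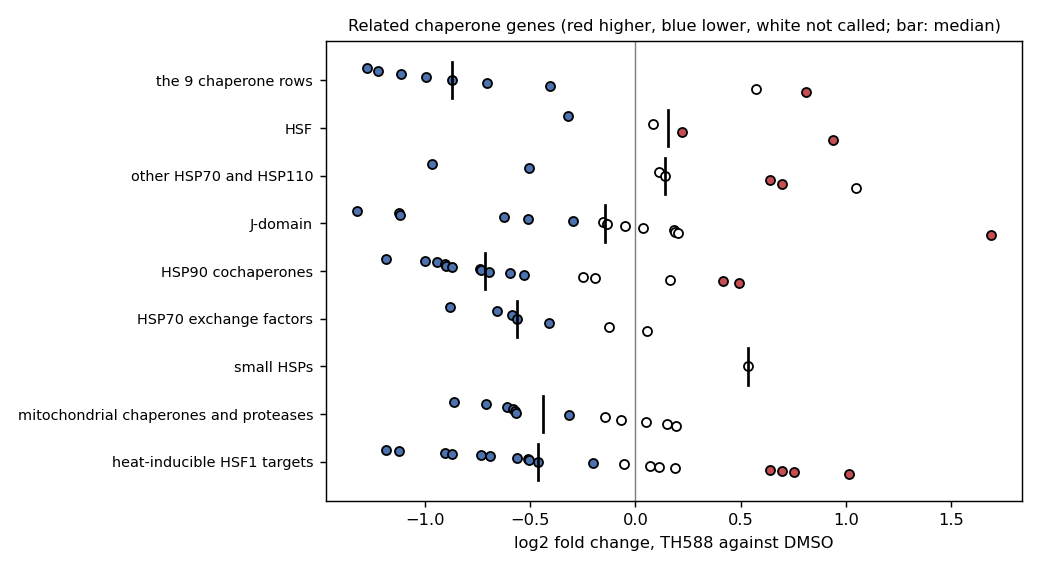
Log2 fold change, TH588 against DMSO (x axis), of the 9 chaperones and of each tested gene in the 8 related lists (y axis), with a bar for each median. Red points were called higher, blue points lower, and white points were not called. The HSP90 cochaperone median lies at -0.71 and the HSF median at 0.15, and DNAJB5 at 1.69 is the highest point.

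The genes whose profile over the 6 libraries was most like each member were sought among the 6591 tested genes whose mean log2 CPM reached 4, by the root mean square difference of log2 CPM centred on each gene's mean. The nearest gene to HSP90AB1 was C12orf75 (difference 0.0173), to HSPH1 NCAPD3 (0.0203), to DNAJB1 DHX16 (0.0217) and to HSPD1 EIF1AX (0.0236). HSPA8 was nearest to THAP12 (0.0337), HSP90AA1 to HAUS3 (0.0407), HSPB1 to PTK7 (0.0437) and HSPE1 to GEN1 (0.111). The summed HSPA1A and HSPA1B had no close match: its nearest gene, RILPL1, differed by 0.497. These 6 libraries form 2 groups, so the likeness mostly reflects the same fold change, and no function is read from it.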

How the data were processed

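Polyadenylated RNA of 6 A2780 libraries, 3 per treatment, was sequenced. Per the labels, the authors used TopHat for alignment (GRCh38) and featureCounts 1.4.6, part of Subread, for counting, and raw counts per gene were deposited. The treatment of strand and of reads with several matches is not given in the sources used here, and the authors' own test was DESeq2. Groups and replicate letters came from the sample labels.

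Here genes were tested with edgeR 4.0.16 in R 4.3.3 (TMM normalization, filterByExpr, quasi-likelihood test, Benjamini-Hochberg adjusted p under 0.05), fitted on the whole table, with limma 3.58.1 and DESeq2 1.42.0 as alternatives. A standard error is the size of the log2 fold change over the root of the F statistic. Ratios and the sum of the members were compared by exact permutation. The procedure was tested on simulated counts in which far fewer genes changed than were called here, equally many up and down. Each simulated gene had the spread typical of its level, not its own. That test therefore does not cover a response as broad as this one or genes with unusual spread. The members and lists were chosen with earlier results of these data known. Named genes are the members, HSF1, HSF2 and, in each list, the 2 largest rises and falls that were called, did not overlap and reached a mean log2 CPM of 2. A gene that this rule names is not reported here.

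Replicates differed by far more than sampling noise (chi-square per degree of freedom 24.5 to 179.8). The fit reported did not pair libraries by replicate letter. Libraries with the same letter did not deviate together, which does not show how they were prepared. Totals were 28537837 to 99074175 counts, and intervals and floors cover counting error only. Shared windows were counted against GENCODE transcripts. Promoters were taken from RefSeq. The alternatives were other scalings, tools, filters, thresholds, the letter as a block, small RNA rows left out, pseudogene counts added, both HSPA1 copies apart, and each library left out.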

Additional observations from a re-analysis of the deposited data

How the results depend on the processing

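No chaperone changed direction under any alternative run. Of 152 alternative values of single chaperones, 148 kept their side of the threshold, 1 lost it (DNAJB1 with library size only) and 3 gained it, all for HSPA1A+HSPA1B. Those 3 were without DMSO C, without TH588 C, and without a filter on low counts (0.58, adjusted p = 3.41e-09), a fit in which edgeR's prior degrees of freedom were infinite, so that the gene's own spread was not used, against 8.02 in the fit reported. The number of chaperones called ranged from 7 to 9. The median chaperone log2 fold change was -0.76 with library size only and -0.79 with HSPA1A and HSPA1B apart, against -0.87. It ranged from -0.92 to -0.82 with each library left out in turn. Library size only moved the median of all genes to 0.13 and the share of calls that were higher from 48.9% to 60.4%. The log2 ratio of HSPD1 to HSPE1, -0.05 with all libraries, ranged from -0.193 to 0.0631 with each library left out in turn, and turned positive without DMSO A (0.0631) and without TH588 C (0.0541). The cause was not tested. The calls in the related lists ranged from 35 to 44, and of 323 alternative values of 19 other named genes 304 kept their side and 19 lost it, all of HSF1, HSF2 or CDC37L1. Libraries with the same letter did not deviate together (correlations -0.07, -0.08 and 0.00). With the letter as a replicate block the chaperone median was -0.87, the chaperone calls stayed 8, and of the named genes only HSF2 lost its call (adjusted p = 0.0864). Of the other small heat shock genes 7 did not reach the filter.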
